A study of Mus musculus with 4 samples.

Results

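The genes for the major milk proteins of the mouse were examined in Foxp1 chromatin immunoprecipitation followed by sequencing (ChIP-seq) of basal and luminal mammary epithelial cells. The members were chosen by gene symbol in the table of read counts per gene: the 5 casein genes Csn1s1, Csn1s2a, Csn1s2b, Csn2 and Csn3, the whey protein genes Wap and Lalba, and Glycam1. All 8 were found among 24548 genes, and all 8 had at least 40 reads over the 4 libraries, as did 23128 genes in all, which are called the genes tested. Both cell types came from wild-type females of the strain FVB/N (FBV/N in the sample labels) aged 10 to 12 weeks; the sources used here do not say whether they had been pregnant. The 4 groups were basal cells with Foxp1 antibody, basal input, luminal cells with Foxp1 antibody and luminal input, with 1 library each, where input is DNA sequenced from the same kind of cells with no antibody. The labels name no treatment, no altered allele and no control antibody.

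Caseins are the phosphoproteins that carry calcium in milk, and whey proteins are the soluble proteins that remain when casein is removed. Their genes are transcribed in alveolar luminal cells during pregnancy and lactation, when prolactin acts through its receptor and the kinase Jak2 on the transcription factor Stat5, together with glucocorticoid receptor, Elf5 and nuclear factor I proteins. Foxp1 is a forkhead factor best known as a transcriptional repressor. Basal cells form the contractile outer layer of the ducts and do not secrete milk.

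The value of a gene is a count of reads in a region of similar size for each gene. Its width was not stated and was read from the inputs. Median input reads, summed over both inputs, were 293 in the shortest 10% of autosomal genes and 365 in the longest 10%, so the gene body was not what was counted. In genes whose start lay back to back with another start, the median was 95.5 at 2 to 3 kb between the starts, 279 at 4 to 5 kb and 373 at 6 to 7 kb, against 353 in genes with no other listed start within 20 kb. On the same strand it was 166 at 2 to 3 kb and 336 at 5 to 6 kb. The counts thus refer to some kilobases around a gene's start, and reads shared by the regions of neighbouring genes were not counted. Among the starts that the RefSeq promoter table holds, the nearest other one lay 12.6 kb (Wap) to 51.2 kb (Csn1s2a) from the starts of 6 members. The table lacks some neighbours, among them Csn1s2b and Ppp1r1a, so a nearer start may have been missed.

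The bases before the start of 4 of the 8 genes are shown because they lie inside the counted region and hold a STAT or forkhead motif there. Each line gives the 250 bases before the start on the coding strand, from RefSeq (GRCm38.p6), with motif matches in capitals. Csn2, which had the lowest ratio of ChIP to input in basal cells, is chr5:87699426-87699675 on the minus strand, Csn1s1 chr5:87665958-87666207 on the plus strand, Glycam1 chr15:103565082-103565331 and Wap chr11:6638650-6638899, both on the minus strand.
Csn2: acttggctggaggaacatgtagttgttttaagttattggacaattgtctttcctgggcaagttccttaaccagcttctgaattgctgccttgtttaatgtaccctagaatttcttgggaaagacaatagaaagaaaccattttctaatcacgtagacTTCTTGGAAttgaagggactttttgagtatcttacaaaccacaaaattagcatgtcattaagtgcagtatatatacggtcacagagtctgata
Csn1s1: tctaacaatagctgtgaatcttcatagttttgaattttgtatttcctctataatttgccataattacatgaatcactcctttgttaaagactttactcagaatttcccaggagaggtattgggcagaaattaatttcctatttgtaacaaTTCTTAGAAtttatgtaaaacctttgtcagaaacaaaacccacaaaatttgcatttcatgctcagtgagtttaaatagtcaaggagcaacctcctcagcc
Glycam1: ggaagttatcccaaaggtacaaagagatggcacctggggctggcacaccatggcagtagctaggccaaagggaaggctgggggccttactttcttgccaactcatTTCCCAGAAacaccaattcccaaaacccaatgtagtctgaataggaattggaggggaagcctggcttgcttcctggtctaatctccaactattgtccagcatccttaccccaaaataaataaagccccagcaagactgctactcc
Wap: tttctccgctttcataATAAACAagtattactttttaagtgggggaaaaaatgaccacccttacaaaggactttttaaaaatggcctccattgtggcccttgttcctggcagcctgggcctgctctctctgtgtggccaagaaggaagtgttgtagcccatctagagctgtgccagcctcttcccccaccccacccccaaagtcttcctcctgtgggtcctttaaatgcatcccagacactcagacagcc

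The capitals in Csn2, Csn1s1 and Glycam1 mark the STAT motif TTCNNNGAA, which reads the same on both strands. It began 93 bases before the start in Csn2, 100 in Csn1s1 and 145 in Glycam1. The capitals in Wap mark the forkhead motif TGTTTAT on the opposite strand, 234 bases before the start. Windows of 300 bases, 250 before to 50 after the start, were searched on both strands. The STAT motif was present in 4 of the 6 member windows, in Csn1s2a 20 bases after the start, and in 8.30% of 32851 windows of all genes. TGTTTAT was present in 1 of the 6 and in 4.60% of all windows, and the forkhead motif TGTTTAC in 0 of the 6 and in 3.65% of all. AGAACA, a core motif of the glucocorticoid receptor, was present in 1 of the 6, Csn1s2a, and in 19.0% of all windows. TATAAA, searched on the coding strand alone, was present in 0 of the 6 and in 8.32% of all. Matches of different motifs did not overlap in the members. Csn1s2b and Csn3 had no entry in the table. These are matches of letters, not measured binding sites.

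The gene regions held 3080114 to 4201459 reads per library, and the median gene tested had 136 to 192. Ratios were taken after scaling by trimmed mean of M values (TMM). At no difference, the reads in basal ChIP are 1.18 times those in basal input, and the reads in luminal ChIP 0.735 times those in luminal input. Each ratio has an exact 99% interval that covers counting error only, and no p-value is given because no group has a replicate. Called genes are those that differed at least 1.5-fold, in either direction, and whose interval excludes 1. The region of Foxp1 itself stood at log2 1.20 in basal and 0.78 in luminal cells. Basal markers (8 genes) had a median of 0.50 in basal and -0.17 in luminal ChIP over input. Luminal markers (12 genes) had a median of 0.31 in luminal and 0.19 in basal ChIP over input. The median of basal minus luminal log2 ratios was 0.56 for basal and 0.03 for luminal markers. Counts of genomic DNA do not measure expression, so markers do not check the identity of the cells here.

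**Figure D1:**
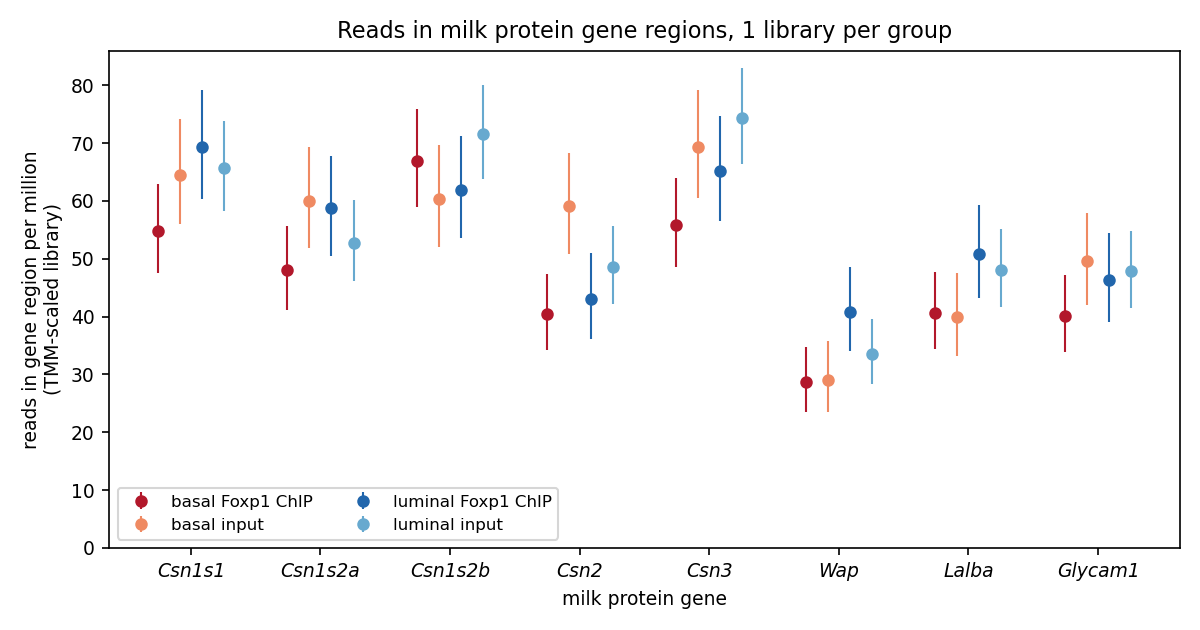
Reads in each milk protein gene region in CPM of the TMM-scaled library (vertical axis) for the 8 genes (horizontal axis), with 1 point per library and exact 95% Poisson intervals. In Csn2 the basal input lies highest, at 59.1, and the basal Foxp1 ChIP lowest, at 40.4.

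In basal cells no milk protein gene was called in Foxp1 ChIP over input. Of the 8 genes 0 were called higher and 0 lower, where 4.24% of all genes tested were called higher and 4.06% lower. With so few called over all genes, 0 of 8 does not set the members apart. The median log2 ratio of the 8 was -0.27, against -0.01 over all genes tested and -0.21 over 1089 olfactory receptor genes, a large family of odour receptors of the nose. The upper interval bound lay under 1.5-fold in 8 of the 8 genes, the highest being 1.45-fold for Wap. These bounds cover counting error with TMM scaling alone. Centring on the olfactory receptors, whose median was -0.21, raised every bound, that of Wap past 1.5-fold. Widening by the spread of those genes raised the bounds too. Csn2 alone had an interval that excluded 1, as did 19.2% of all genes tested.

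Csn2 encodes beta-casein, a major casein of mouse milk (chr5:87692619-87699429). It had 149 reads in basal ChIP and 185 in basal input, and 135 in luminal ChIP and 207 in luminal input. Its basal ratio was 0.684 (99% interval 0.511 to 0.912). A call would have needed 145 reads or fewer in basal ChIP, 4 below the number found. With total-count scaling the ratio passed the threshold, at log2 -0.60, and with the interval widened by the spread of olfactory receptor genes the log2 interval ran from -1.19 to 0.09. In counts per scaled library (CPM), the order was basal input (59.1), luminal input (48.6), luminal ChIP (43.1) and basal ChIP (40.4), and the 95% intervals of neighbours in that order overlapped.

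Csn1s1, the gene of alpha-S1-casein (chr5:87666208-87682578), had 202 reads in basal ChIP and 202 in basal input, and 217 in luminal ChIP and 280 in luminal input. Its basal ratio was 0.849 (0.653 to 1.10) and its luminal ratio 1.05 (0.831 to 1.34). Equal reads in the basal libraries gave a ratio under 1 because the ChIP library was the deeper one. Csn3, the gene of kappa-casein, which holds casein micelles in suspension (chr5:87925579-87932550), had 206 reads over 217 in basal and 204 over 317 in luminal cells. Its ratios were 0.806 (0.624 to 1.04) and 0.876 (0.691 to 1.11), so ChIP lay slightly under input in both cell types, within counting error. Csn3 lies inside the annotated span of the long noncoding RNA 1700066N21Rik, whose own region had 29 to 41 reads per library.

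Csn1s2a and Csn1s2b, related alpha-S2-like casein genes, lay on opposite sides of 1 in both cell types. Csn1s2a (chr5:87774450-87788798) had 177 reads over 188 in basal and 184 over 225 in luminal cells. Its ratio was 0.799 (0.606 to 1.05) in basal and 1.11 (0.856 to 1.44) in luminal cells. Csn1s2b (chr5:87808121-87824421) had 247 over 189 in basal and 194 over 305 in luminal cells. Its ratio was 1.11 (0.862 to 1.43) in basal and 0.866 (0.679 to 1.10) in luminal cells. Each of these 4 intervals held 1. The sources used here do not say how reads matching both genes were placed, so a division of reads between them is uncertain.

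Wap, the gene of whey acidic protein (chr11:6635483-6638654), had 106 reads over 91 in basal and 128 over 143 in luminal cells. Its ratio was 0.989 (0.678 to 1.45) in basal cells and 1.22 (0.883 to 1.68) in luminal cells, the highest luminal ratio of the 8. With 468 reads over the 4 libraries it had the fewest reads and the widest intervals. Lalba encodes alpha-lactalbumin, the partner of galactosyltransferase in lactose synthesis (chr15:98480400-98482934). It had 150 reads over 125 in basal and 159 over 205 in luminal cells, ratios of 1.02 (0.741 to 1.40) and 1.06 (0.798 to 1.39). Glycam1, a mucin-like glycoprotein of milk (chr15:103562759-103565081), had 148 over 155 in basal and 145 over 204 in luminal cells, ratios of 0.810 (0.598 to 1.10) and 0.967 (0.725 to 1.28).

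**Figure D2:**
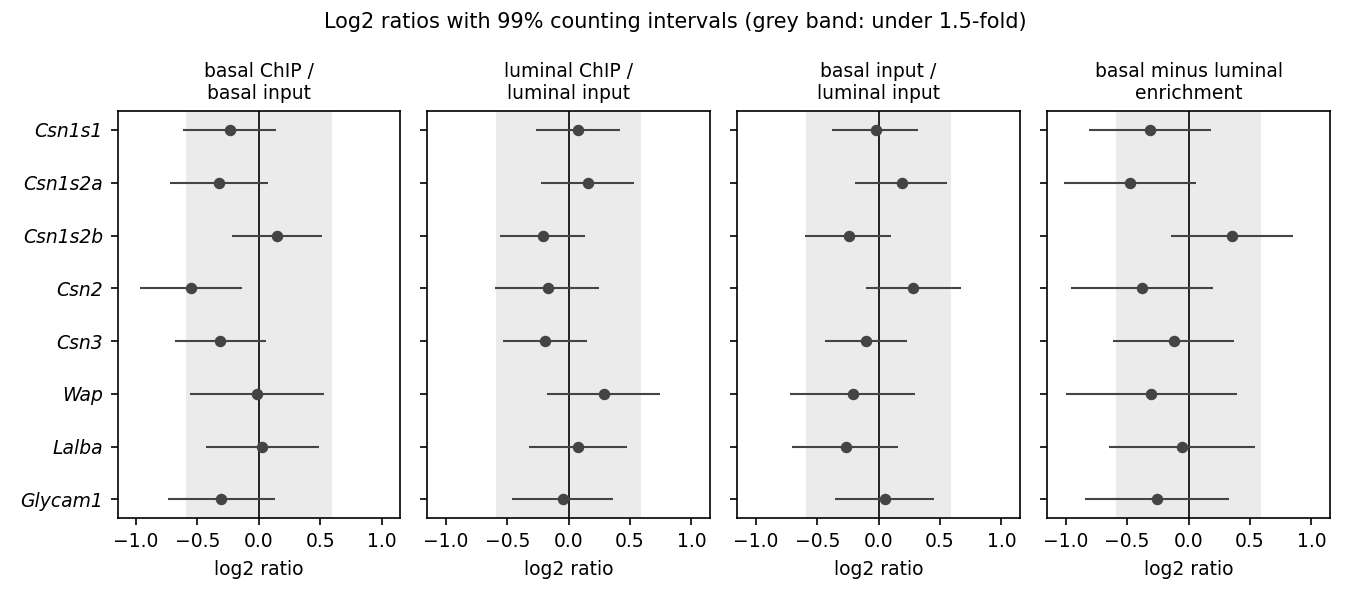
Log2 ratios (horizontal axes) of the 8 milk protein genes in the 4 comparisons, with 99% intervals from counting error; the grey band marks ratios under 1.5-fold in either direction. The points lie between -0.55 and 0.36, and the interval of Csn2 in basal ChIP over input is the one that does not reach 0.

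In luminal cells, the lineage that secretes milk, the 8 genes had a median log2 ratio of 0.01, which turned to -0.02 with total-count scaling. Of the 8, 0 were called higher and 0 lower, where 1.5% of all genes tested were called higher and 2.13% lower. The values ran from -0.21 (Csn1s2b) to 0.28 (Wap), that is, from the 23.6th to the 84.7th percentile of all genes tested. The interval excluded 1 in 0 of the 8 and in 11.1% of all genes. For counting error with TMM scaling alone, the upper bound lay under 1.5-fold in 7 of the 8. That of Wap was 1.68-fold, so a 1.5-fold enrichment of its region was within its counting error.

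Between the inputs, which hold no antibody signal, the members also lay near 1. In basal over luminal input 0 of the 8 were called higher and 0 lower, where 0.709% of all genes were called higher and 0.463% lower, and the interval excluded 1 in 0 of the 8 and in 5.53% of all genes. The median was -0.06. Csn2 was highest, at 1.22-fold (0.933 to 1.59), and Lalba lowest, at 0.831 (0.614 to 1.12). The input of a cell type divides its ChIP, so the position of Csn2 as highest between the inputs and lowest in basal ChIP over input rests partly on the same 185 reads. With both inputs summed as background its basal log2 ratio was -0.39.

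The difference in enrichment, basal minus luminal, was below 0 for 7 of the 8 genes. It was below 0 for 11483 of the 23128 genes tested and for 725 of 1089 olfactory receptors. The median of the 8 was -0.28, and -0.13 with ratios centred on olfactory receptors. Of the 8, 0 were called higher in basal and 0 in luminal cells, where 3.72% and 4.16% of all genes were, and the interval excluded 0 in 0 of the 8 and in 9.50% of all. Csn1s2a had the lowest difference, -0.48 (standard error 0.21, 99% interval -1.01 to 0.06), and Csn1s2b the only one above 0, 0.36 (standard error 0.19, interval -0.14 to 0.85). The other 6 lay between -0.38 (Csn2) and -0.05 (Lalba). Neighbours in this order differed by less than their intervals.

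**Figure D3:**
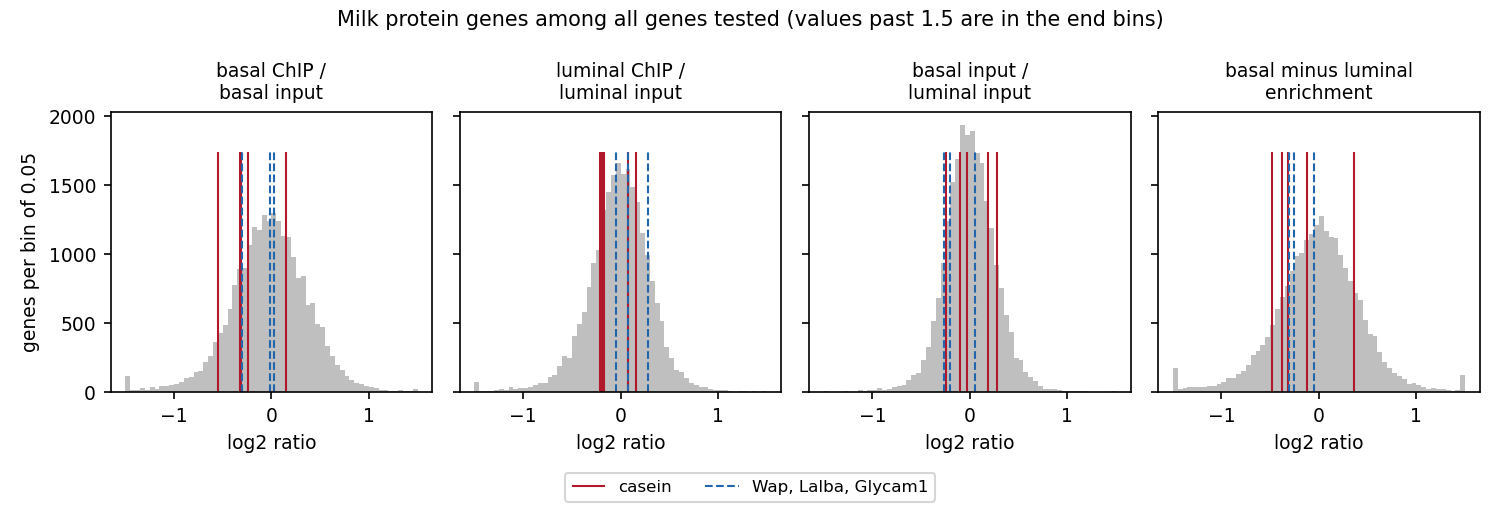
Histograms of log2 ratios (horizontal axes) over the 23128 genes tested, in genes per bin of 0.05 (vertical axis), with solid red lines for the 5 caseins and dashed blue lines for Wap, Lalba and Glycam1. In luminal ChIP over input the 8 lines lie between -0.21 and 0.28, inside the body of the distribution.

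Summing reads over genes lowers the counting error. The 5 caseins together had 981 reads in basal ChIP (95% Poisson interval 921 to 1044) and 981 in basal input, and 934 in luminal ChIP and 1334 in luminal input. The ratio of the sums was 0.849 in basal cells (99% interval 0.755 to 0.954) and 0.953 in luminal cells (0.853 to 1.06). Over all 8 genes it was 0.869 (0.787 to 0.960) and 0.986 (0.899 to 1.08). The basal intervals thus excluded 1 for counting error, but not when widened by the spread of olfactory receptor genes, whose variance in basal ChIP over input was 2.29 times that of counting. Widened, the log2 interval of the casein sum ran from -0.49 to 0.02. With ratios centred on olfactory receptors the basal log2 ratio was -0.02 for the caseins and 0.01 for all 8, that is, close to the median of the receptors. Between basal and luminal enrichment the casein sums differed by -0.17 (-0.40 to 0.06) and the sums over all 8 by -0.18 (-0.37 to 0.01).

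The caseins stand in 1 cluster on chromosome 5, and the genes around them gave similar values. Within 200 kb of a casein gene the table held 14 other genes, 14 of them tested, among them Odam, of tooth enamel, the salivary gene Smr3a and the sulfotransferase genes Sult1b1, Sult1d1 and Sult1e1. Their median log2 ratio was -0.29 in basal ChIP over input, with 12 of 14 below 0, and -0.12 in luminal ChIP over input, with 11 below 0. Below 0 in basal cells were 11923 of the 23128 genes tested and 885 of 1089 olfactory receptors. In luminal cells 11652 and 660 were. Called lower in basal cells were Sult1e1, with 151 reads over 202 (-0.66), and Sult1b1, with 63 over 96 (-0.84). None was called higher. Of all genes tested 4.06% were called lower there and 4.24% higher. In luminal cells Cabs1 was called lower, with 20 reads over 63, where 2.13% of all genes were. Sult1e1 was also called lower in the difference, at -0.86, where 4.16% of all genes were. The 5 caseins had medians of -0.31 and -0.17. In luminal cells they lay in the range of these neighbours. In basal cells all but Csn1s2b did, which at 0.15 lay above the highest neighbour, Smr2 (0.11).

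**Figure D4:**
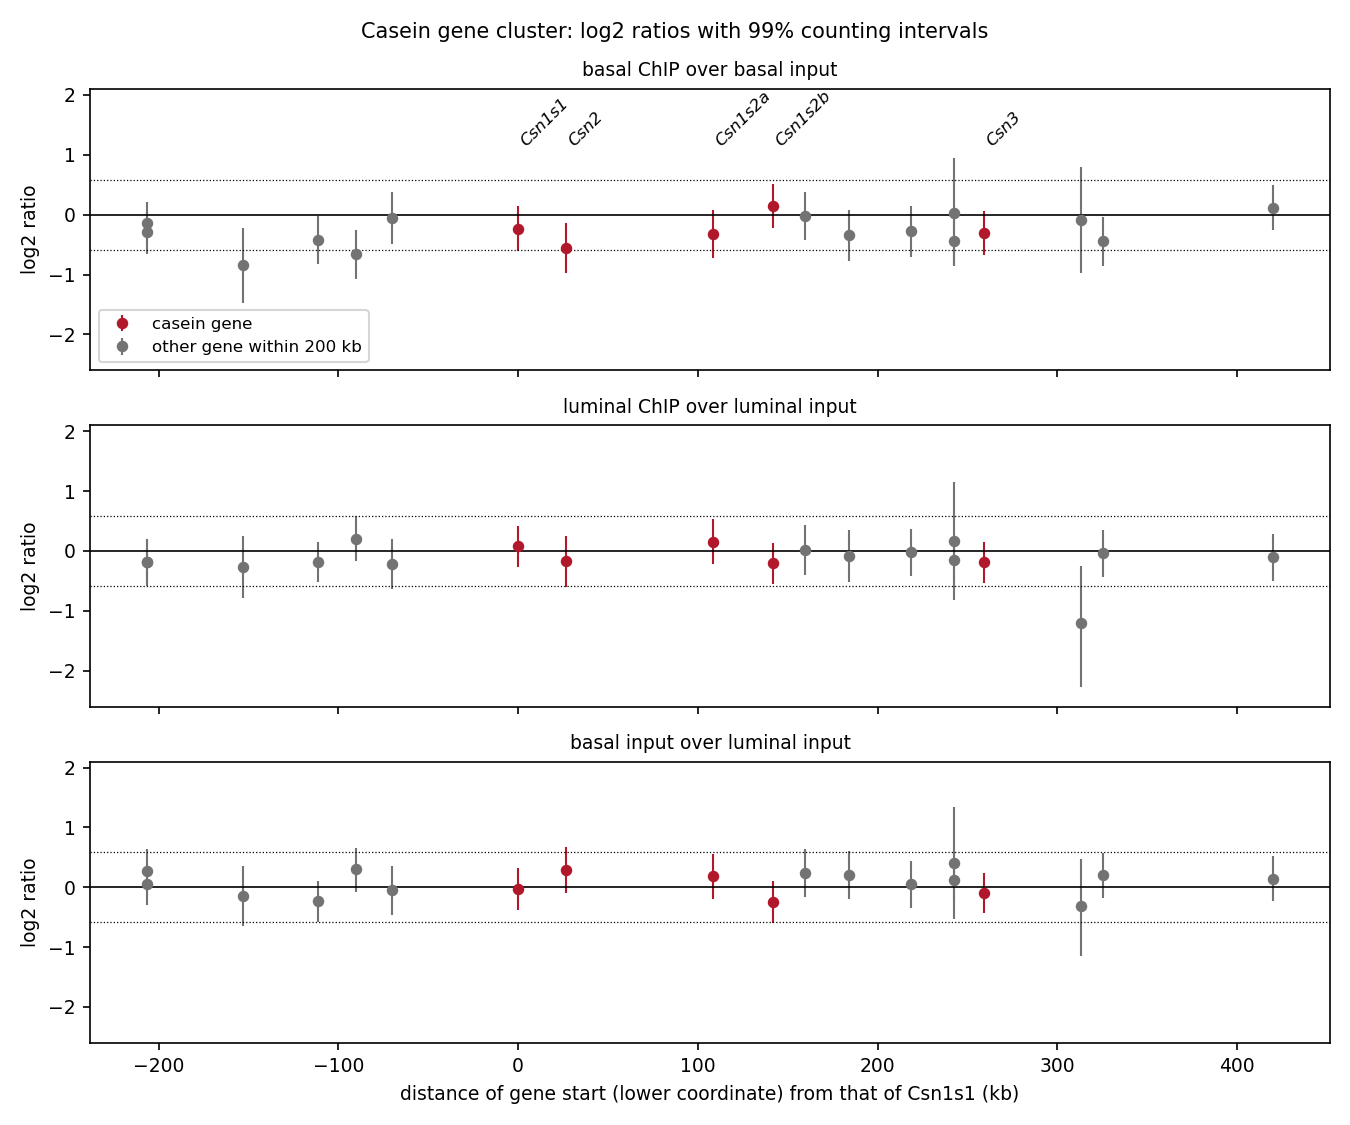
Log2 ratios with 99% intervals (vertical axes) of the genes of the casein cluster against the distance in kb between the lower end of each gene and that of Csn1s1 (horizontal axis), in 3 comparisons; dotted lines mark 1.5-fold. Caseins (red) and the 14 other genes (grey) overlap in each panel.

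Beside Wap stood Tbrg4, at log2 -0.05 in basal and 0.19 in luminal ChIP over input, and Gm11978. Gm11978 was called higher in luminal ChIP over input (0.87), on 55 ChIP and 41 input reads. It was also called higher in basal over luminal input (0.87), on 55 reads over the same 41, so the 2 calls are not independent. Of all genes tested 1.5% and 0.709% were called higher in these comparisons. Beside Lalba stood the receptor genes Olfr281 (-0.38 and -0.31) and Olfr279 (-0.04 and -0.14). Beside Glycam1 stood Ppp1r1a, at -0.25 and -0.22, and Mucl1, which had 0 or 1 read per library and was not tested.

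Base composition moved with the ratios over all genes, and its part in the members' values was not tested. The 3 caseins with a promoter window had 32.3% to 38.7% G and C, and Wap, Lalba and Glycam1 49.0% to 50.3%. With the genes tested in 5 bins of about equal size by this share, the median basal log2 ratio was -0.17, -0.07, -0.00, 0.09 and 0.17 from the lowest bin to the highest. In luminal cells it was -0.07 in the lowest and 0.09 in the highest bin, and between the inputs 0.13 and -0.05. The 961 other genes tested in the range of the caseins had a median of -0.21 in basal and -0.06 in luminal cells, and the 769 in the range of the other 3 members -0.10 and -0.05. Of the 6 members, 3 were in the lowest bin and 3 in the next.

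**Figure D5:**
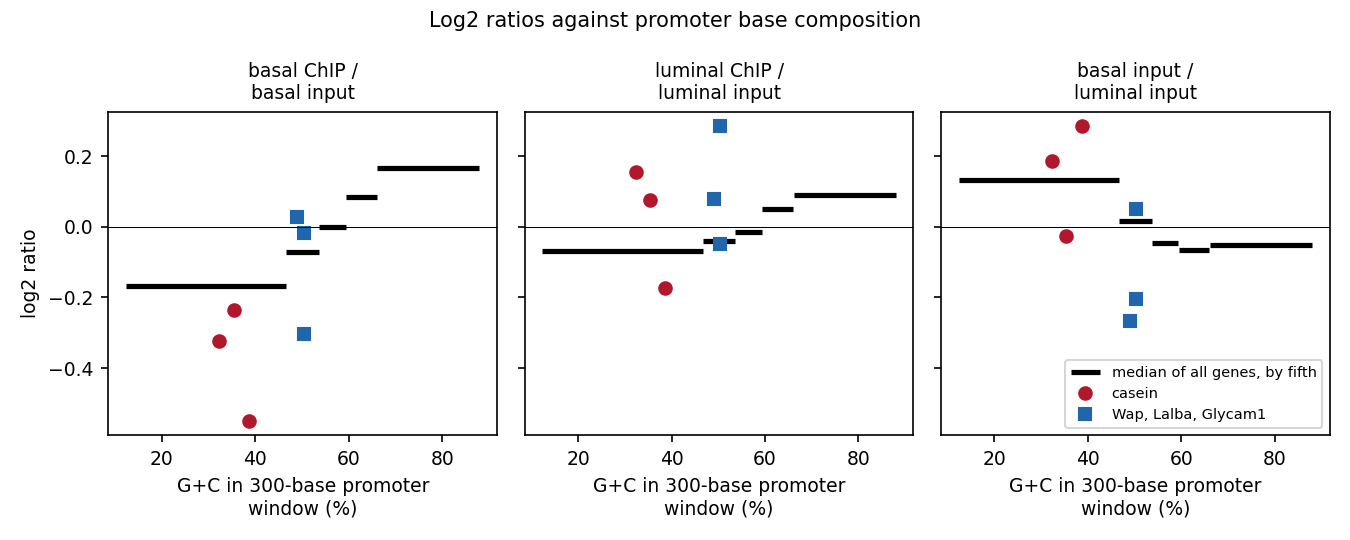
Log2 ratios (vertical axes) against the share of G and C in the 300-base promoter window (horizontal axes) for the 6 milk protein genes with a window; black bars are medians of all genes tested in 5 bins of that share. In basal ChIP over input the bars climb from -0.17 to 0.17, and the 3 caseins lie below the lowest bar.

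Many other genes lay close to the median values of the members. The measure was the Euclidean distance, over 3 log2 ratios, from the median of the 8. The members themselves lay 0.08 (Csn1s1) to 0.51 (Csn1s2b) from it, so they did not share 1 pattern. Nearest among 19709 other protein-coding genes were Olfr556, Il15, Crygc, En1 and 9530077C05Rik, each within 0.03. Within the median distance of the members themselves, 0.33, lay 3889 of these genes.

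Genes of lactogenic signalling were examined next, as a list chosen with earlier results known. The list reaches beyond the path from prolactin to Stat5, for example to Igf1r, Gata3 and Tnfsf11. Of 22 genes, 5 were called higher in basal ChIP over input and 0 lower, with a median of 0.41, where 4.24% of all genes tested were called higher. Igf1r, the growth factor receptor, had 494 reads over 211, a ratio of 1.99 (1.61 to 2.47). Socs1 (284 over 135, log2 0.84) and Socs3 (0.60), which restrain Jak kinases, and the transcription factor genes Cebpb (0.78) and Nfib (0.61) were the others. Stat5a stood at 0.51 and Jak2 at 0.48 without passing, Stat5b at -0.29, and Prlr, the prolactin receptor, at -0.47. Socs2 was lowest, at -0.77, on 9 reads over 13. The calls on Nfib and Cebpb were lost with the widened interval and those on Nfib and Socs3 with total counts. Centred on olfactory receptors, 12 of the 22 were called higher in basal cells, where 12.9% of all genes were. With the inputs summed the call on Nfib was lost, Nr3c1 was called higher and Prlr lower. At 2-fold 0 of the 22 were called in basal cells, where 0.553% of all genes were called higher.

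In luminal cells 2 of the 22 were called higher and 0 lower, with a median of 0.16, where 1.5% of all genes were called higher. These were Socs1, with 223 reads over 170 (log2 0.84), and Gata3, a luminal regulator, with 114 over 77 (1.01). Socs2 was lowest, at -0.73, and Elf5, a regulator of alveolar cells, stood at -0.48 without passing. In the difference Igf1r (0.78) and Cish (0.61), an inhibitor of Stat5 signalling, were called higher in basal cells, where 3.72% of all genes were. Prlr (-0.62) was called higher in luminal cells, where 4.16% of all genes were. Of these calls, the one on Igf1r was kept with the widened interval. Between the inputs 0 of the 22 were called, with Tnfsf11 highest (0.41) and Socs2 lowest (-0.61).

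Genes that make lactose, the sugar whose synthesis needs Lalba, gave 2 of 9 called higher in basal cells and 0 in luminal cells, with 0 lower in either, against 4.24% and 1.5% of all genes called higher. B4galt1, the galactosyltransferase that alpha-lactalbumin binds, had 196 reads over 103, a ratio of 1.62 (1.18 to 2.24) in basal cells, and 195 over 198, log2 0.42, in luminal cells. Slc2a1, a glucose transporter, stood at 0.63 in basal cells. The call on Slc2a1 was lost with total counts and that on B4galt1 with the widened interval. Both basal calls were lost with the inputs summed. In that setting B4galt1 was called higher in luminal cells, where 1.77% of all genes were. The lowest were Ugp2 in basal cells (-0.14) and Hk1 in luminal cells (-0.14), and none of the 9 was called in the difference, where Hk1 was highest (0.33) and Ugp2 lowest (-0.44).

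Of 20 genes of milk fat, 2 were called higher in basal cells, Mfge8, a protein of the fat globule membrane (309 reads over 154, 0.77), and Xdh, xanthine dehydrogenase (0.63), where 4.24% of all genes were. In luminal cells 1, Dgat1, an enzyme of triglyceride synthesis, was called higher (0.60), where 1.5% of all genes were. In either cell type 0 were called lower. The lowest were Acly in basal (-0.43) and Muc1 in luminal cells (-0.44). Centred on olfactory receptors, 4 were called higher in basal cells, where 12.9% of all genes were. The calls on Xdh and Dgat1 were lost with total counts. In the difference Mfge8 (0.71) and Scd2 (0.67) were called higher in basal cells, where 3.72% of all genes were, and Olah was lowest (-0.52). Both calls were lost with the widened interval and with the inputs summed, where Olah was called lower.

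Of 13 genes of other milk proteins, 2 were called higher in basal cells, Lpo, lactoperoxidase (0.63), and Trf, transferrin (0.62), both lost with total counts, and 0 in luminal cells, where Trf was highest (0.39). Over all genes 4.24% were called higher in basal and 1.5% in luminal cells. The acute-phase gene Saa3 was lowest in both (-0.51 and -0.33). With the inputs summed, Saa3 and Cel were called lower in basal cells, where 3.74% of all genes were. In the difference 0 were called, with Lpo highest (0.50) and Cel lowest (-0.48). Of 6 genes of calcium and phosphate handling and casein phosphorylation, Fam20c, the kinase that phosphorylates caseins, was called higher in basal cells, with 354 reads over 184, a ratio of 1.63 (1.29 to 2.08), as 1 of the 6 against 4.24% of all genes, and stood at 0.04 in luminal cells. Slc34a2, a phosphate transporter, was lowest in basal cells (-0.25) and highest in luminal cells (0.50), without passing, and Casr was lowest in luminal cells (-0.39). In the difference Fam20c (0.67) was called higher in basal and Slc34a2 (-0.75) in luminal cells, where 3.72% and 4.16% of all genes were. Both calls were lost with the widened interval. At 2-fold, the lists of lactose synthesis, milk fat, other milk proteins and this one had 0 genes called in basal ChIP over input.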

How the data were processed

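The authors deposited raw read counts per gene, 1 library per column, not normalized. Reads were counted with featureCounts on build mm10, per the submitters' processing notes; the sources used here do not give the aligner, counted region or duplicate handling. Single reads of 75 to 85 bp were sequenced, per the labels' protocols. The per-sample files equalled the series table in 24548 of 24548 genes. Counts were scaled with TMM (edgeR 4.0.16, R 4.3.3) on the 23128 genes with at least 40 reads over the 4 libraries. Ratios have exact Clopper-Pearson 99% intervals. Differences of ratios have normal intervals from the 4 counts plus 0.5. The intervals were tested on simulated counts that held counting error alone, so that test cannot show how they cover any other spread. PCR copies are not independent molecules, so intervals cover counting error only. Gene positions came from RefSeq (GRCm38.p6), in which 24480 gene IDs were found. Members and lists were chosen with earlier results of these data known. Named besides the 8 members were neighbouring genes, each list's called, highest and lowest genes, the 5 nearest in pattern and a few examples chosen after their values were seen. Alternatives were other scalings (total counts, DESeq2 1.42.0, olfactory receptors as centre), count minimums, intervals, 2-fold calls and both inputs summed. Further steps used Python 3.11.15.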

Additional observations from a re-analysis of the deposited data

How the results depend on the processing

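Of the 8 genes, 0 were called in each comparison under DESeq2 size factors, receptor centring, no count minimum, a minimum of 100 reads, 95% intervals, widened intervals and 2-fold calls, and in the 3 comparisons that use ChIP with summed inputs. With total counts 1, Csn2, was called lower in basal ChIP over input. Centring on olfactory receptors moved the median of all genes to 0.20 in basal cells, 0.07 in luminal cells, -0.21 between the inputs and 0.15 in the difference. It moved the casein sum to -0.0225 in basal ChIP over input and -0.21 between the inputs, and the sum over all 8 to 0.0122, -0.25 and, in the difference, -0.0320. The difference of the 8-gene sums had an interval that excluded 0 with total counts (-0.20) and with summed inputs (-0.21), the latter added after the data were seen. With TMM the interval held 0, and widened by the spread of olfactory receptor genes it ran from -0.47 to 0.11.

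Over all genes, calls in basal cells were 981 higher and 939 lower; they were 128 and 222 at 2-fold, 2994 and 237 with receptor centring, and 821 and 227 with widened intervals. In luminal cells 347 and 492 became 47 and 132, 571 and 306, and 259 and 121 in the same order. Between the inputs 164 and 107 became 16 and 21, 13 and 904, and 132 and 75; with 95% intervals they were 261 and 191. In the difference 861 and 963 became 133 and 239, 2063 and 405, and 205 and 128. Of all calls, the higher ones made up 51.1% in basal and 41.4% in luminal cells, 34.7% and 30.7% with total counts, and 92.7% and 65.1% with receptor centring. No paired analysis was possible because each group holds 1 library. No library could be left out for the same reason.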

Other observations

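Between the inputs, 3 of the 5 other lists had medians under -0.1, on the luminal side. Of the 9 genes of lactose synthesis 9 lay below 0 in basal over luminal input, with a median of -0.13 and B4galt1 lowest (-0.50). Of 20 genes of milk fat 15 lay below 0, with a median of -0.18 and Muc1 lowest (-0.59, on 18 and 37 reads). Of 13 genes of other milk proteins 11 lay below 0, and 2 were called higher in luminal input: Trf, with 103 reads in basal and 223 in luminal input (-0.67), and Wfdc18, a whey acidic protein domain gene, with 121 and 257 (-0.64). Of 22 genes of lactogenic signalling 15 lay below 0, with a median of -0.05, and of 6 genes of calcium and phosphate handling and casein phosphorylation 2 lay below 0, with a median of 0.05. Of the 8 milk protein genes themselves 5 lay below 0, with a median of -0.06. The median of all genes tested was -0.00, with 11592 of 23128 below 0, and that of olfactory receptors 0.21, with 133 of 1089 below 0. Centred on olfactory receptors, 2 genes of lactose synthesis, 3 of milk fat and 3 of other milk proteins were called higher in luminal input, where 3.91% of all genes were, against 0.463% with TMM. No test compares these lists.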
